A study of Mus musculus with 13 samples.

Results

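The NADPH oxidases carry electrons across a membrane to oxygen, and 6 of their subunit genes were followed here across cultures of injured mouse hepatocytes. The members were found by gene symbol among the 27141 genes of the count table: Ncf1, Ncf4, Cyba, Cybb and Rac2 for the oxidase of phagocytes, and Nox4 for an oxidase that works outside phagocytes. All 6 passed the filter on low counts and were among the 19884 genes tested. The cells were damaged hepatocytes (dHeps), taken from the livers of wild-type mice with chronic injury from carbon tetrachloride (CCl4) and kept for 16 days in a serum-free hepatocyte medium. To that medium came the solvent DMSO, a cocktail of 5 compounds (5C), or 5C lacking a single compound. 5C-G lacked GSK429286A, an inhibitor of ROCK, and 5C-C lacked CID755673, which inhibits protein kinase D. The other compounds were the AMPK activator ETC-1002 (left out in 5C-E), forskolin, which activates adenylate cyclase (5C-F), and Salidroside, a plant glycoside (5C-S). There were 13 libraries, 2 for each of 6 groups and 1 for 5C-S. Libraries of a group are called A and B, without any pairing between groups. The study's methods call its RNA-seq experiments pooled. The study's methods also say that n counts separate biological replicates, but the labels do not say whether A and B came from separate cultures or animals, so the p-values may measure only technical spread between these libraries.

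In phagocytes, Cybb is the catalytic subunit (NOX2, gp91phox) and sits in the membrane together with Cyba (p22phox), its stabilising partner. When the cell is activated, the cytosolic organiser Ncf1 (p47phox) and Ncf4 (p40phox) move to this membrane pair together with a Rac GTPase, mainly Rac2 in blood-derived cells, and the complex makes superoxide. Nox4 also pairs with Cyba but needs none of the cytosolic subunits, releases mostly hydrogen peroxide, and in the liver is known from hepatocytes and from activated stellate cells, where TGF-beta raises it.

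In the genome build GRCm39 with GENCODE annotation, Cybb (ENSMUSG00000015340) lies on the minus strand of chromosome X from 9301491 to 9354010. Cyba (ENSMUSG00000006519) lies on the minus strand of chromosome 8 from 123150422 to 123159706. Ncf1 (ENSMUSG00000015950) lies on the minus strand of chromosome 5 from 134248907 to 134258479. Ncf4 (ENSMUSG00000071715, plus strand, 78128982 to 78146784) and Rac2 (ENSMUSG00000033220, minus strand, 78443367 to 78457429) share chromosome 15. Nox4 (ENSMUSG00000030562) lies on the plus strand of chromosome 7 from 86895304 to 87047918. All are protein-coding genes, and every value below is summed over their exons in the deposited table, whose annotation release is not given. Its counts and FPKM imply lengths of 1041 bases for Cyba, 2023 for Ncf4 and 3108 for Rac2. The GENCODE exons of these genes span 2305, 2310 and 3549 bases, so the exons counted differ from the GENCODE ones. In the GENCODE models, Ncf1 shares 574 exonic bases with Gtf2ird2 on the other strand, Cyba 423 with Il17c and Cybb 304 with Xk. The library kit named in the labels does not mark strand, so reads from such shared stretches cannot be told apart, but these neighbours reached at most 2.37 FPKM (Gtf2ird2), 0.463 FPKM (Il17c) and 1.11 FPKM (Xk) in any library.

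Promoters are shown because the phagocyte genes moved together while Nox4 did not move with them. RefSeq sequences from 250 bases before to 50 bases after the start site were matched for 4 of the 6 members. They are given in the build GRCm38.p6 of that table at chrX:9469275-9469574 (Cybb), chr5:134229576-134229875 (Ncf1) and chr8:122432891-122433190 (Cyba), all on the minus strand, and at chr7:87246399-87246698 on the plus strand (Nox4). Each also matched GRCm39 exactly, at 1 place. They read 5′ to 3′ on the strand of the gene. Capitals mark matches, on either strand, to GAGGAA (the core bound by PU.1, which Spi1 encodes), an interferon response element (TTTC repeated after 2 bases of any kind) or TGANTCA (an AP-1 site).

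Cybb: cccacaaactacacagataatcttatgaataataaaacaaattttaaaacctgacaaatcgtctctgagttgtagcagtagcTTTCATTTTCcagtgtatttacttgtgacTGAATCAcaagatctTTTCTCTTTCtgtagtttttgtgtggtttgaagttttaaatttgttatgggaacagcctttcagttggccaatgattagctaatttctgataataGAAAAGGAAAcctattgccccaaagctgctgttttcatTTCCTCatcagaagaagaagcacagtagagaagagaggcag

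Ncf1: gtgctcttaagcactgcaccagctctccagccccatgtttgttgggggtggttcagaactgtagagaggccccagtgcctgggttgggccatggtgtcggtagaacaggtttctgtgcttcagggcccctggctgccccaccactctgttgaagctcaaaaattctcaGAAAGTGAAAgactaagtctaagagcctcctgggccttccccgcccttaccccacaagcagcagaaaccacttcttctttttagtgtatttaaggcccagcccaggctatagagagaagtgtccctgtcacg

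Cyba: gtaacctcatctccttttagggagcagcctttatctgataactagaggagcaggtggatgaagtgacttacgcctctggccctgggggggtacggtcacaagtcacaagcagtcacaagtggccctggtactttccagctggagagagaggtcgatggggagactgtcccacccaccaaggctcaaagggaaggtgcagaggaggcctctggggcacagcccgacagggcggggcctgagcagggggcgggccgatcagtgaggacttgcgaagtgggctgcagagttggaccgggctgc

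Nox4: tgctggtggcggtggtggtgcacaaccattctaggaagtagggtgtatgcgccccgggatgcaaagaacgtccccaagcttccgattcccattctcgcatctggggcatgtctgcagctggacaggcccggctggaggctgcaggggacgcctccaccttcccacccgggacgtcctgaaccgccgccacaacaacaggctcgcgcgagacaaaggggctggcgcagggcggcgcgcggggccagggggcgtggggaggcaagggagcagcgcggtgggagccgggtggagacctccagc

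The Cybb promoter held 3 matches to the interferon response element, beginning 168, 124 and 29 bases before the start site, 1 match to TGANTCA 139 bases before it and 1 match to GAGGAA at 10 bases after it. Ncf1 held 1 match to the interferon response element at 82 bases before its start site. No match to these letters, or to AGCCAGACA (the SMAD-binding CAGA box), was found in the windows of Cyba and Nox4. Of 32851 promoters of this length in the table, 28.3% held GAGGAA, 3.44% the interferon response element, 7.81% TGANTCA and 0.387% AGCCAGACA. A match is a description of the letters and not of binding.

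Before the results, the make-up of the cultures bears on these genes. Total counts ran from 30195867 to 45491932 per library, and the members had between 155 counts (Ncf4 in 5C B) and 18126 counts (Cyba in 5C-G B). Hepatocyte markers were abundant in every library, with a summed level of 7 genes between 3160 and 21700 FPKM (fragments scaled by gene length and library depth, so that genes can be compared). Macrophage markers were present as well: the 14 genes of that list summed to between 573 FPKM (5C A) and 7580 FPKM (5C-G B), led by Lyz2 and the C1q genes, and of the genes typical of resident macrophages Vsig4, Cd5l and Marco reached 172, 158 and 36.7 FPKM, whereas Clec4f and Timd4 reached at most 0.784 and 0.797 FPKM. Neutrophil markers, by contrast, summed to 5.04 FPKM at most and their defining gene Ly6g never exceeded 1 count, and B, T and NK cell markers summed to at most 0.269 FPKM. In bulk RNA, fewer cells of a type and less RNA per cell cannot be told apart.

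The first comparison asked what the whole cocktail did to these genes. All 5 phagocyte subunits fell in 5C against DMSO, by 2.57-fold for Cyba and by between 6.53-fold and 8.24-fold for the other 4, whereas Nox4 did not differ beyond its error. Among all tested genes 2.89% were called lower in this comparison, a call being an adjusted p below 0.05 together with an absolute log2 fold change above 1. The median log2 fold change was -2.90 over the phagocyte subunits and 0.01 over all tested genes.

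Cybb, the catalytic subunit, was at 27.6 and 26.2 FPKM in DMSO and at 3.75 and 4.90 FPKM in 5C. Its level fell 6.53-fold (log2 fold change -2.71 ± 0.26 SE, edgeR adjusted p = 1.68e-06). Cyba, its membrane partner, was the most abundant member throughout, at 206 and 211 FPKM in DMSO and 81.8 and 88.7 FPKM in 5C. The groups did not overlap for either gene, but the fall of Cyba was smaller on the log scale (-1.36 ± 0.24, adjusted p = 0.00115), so that the ratio of Cyba to Cybb rose from 7.47 and 8.04 in DMSO to 21.8 and 18.1 in 5C. The cytosolic organiser Ncf1 had 35.6 and 34.2 FPKM in DMSO and 4.46 and 4.83 FPKM in 5C, and Ncf4 had 18.0 and 16.8 FPKM against 2.40 and 2.50 FPKM. Both libraries of 5C therefore lay far below both libraries of DMSO, with log2 fold changes of -2.98 ± 0.25 for Ncf1 (edgeR adjusted p = 4.29e-07) and -2.90 ± 0.31 for Ncf4 (adjusted p = 6.20e-06). Rac2, the GTPase of the complex, went from 16.2 and 16.8 FPKM to 1.66 and 2.55 FPKM, which is -3.04 ± 0.30 on the log2 scale (edgeR adjusted p = 2.33e-06). The ratio of Ncf1 to Cybb was 1.30 ± 0.0141 (SD, n = 2) in DMSO and 1.09 ± 0.146 in 5C, and that of Rac2 to Cybb was 0.614 ± 0.0375 and 0.481 ± 0.0552.

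Nox4 gave 5.49 and 5.03 FPKM in DMSO and 6.27 and 4.61 FPKM in 5C. The 5C libraries lay on either side of the DMSO libraries, and the log2 fold change was -0.03 ± 0.24 (edgeR adjusted p = 0.987). With Cybb down and Nox4 level, the ratio of Nox4 to Cybb went from 0.199 and 0.192 in DMSO to 1.67 and 0.940 in 5C.

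**Figure D1:**
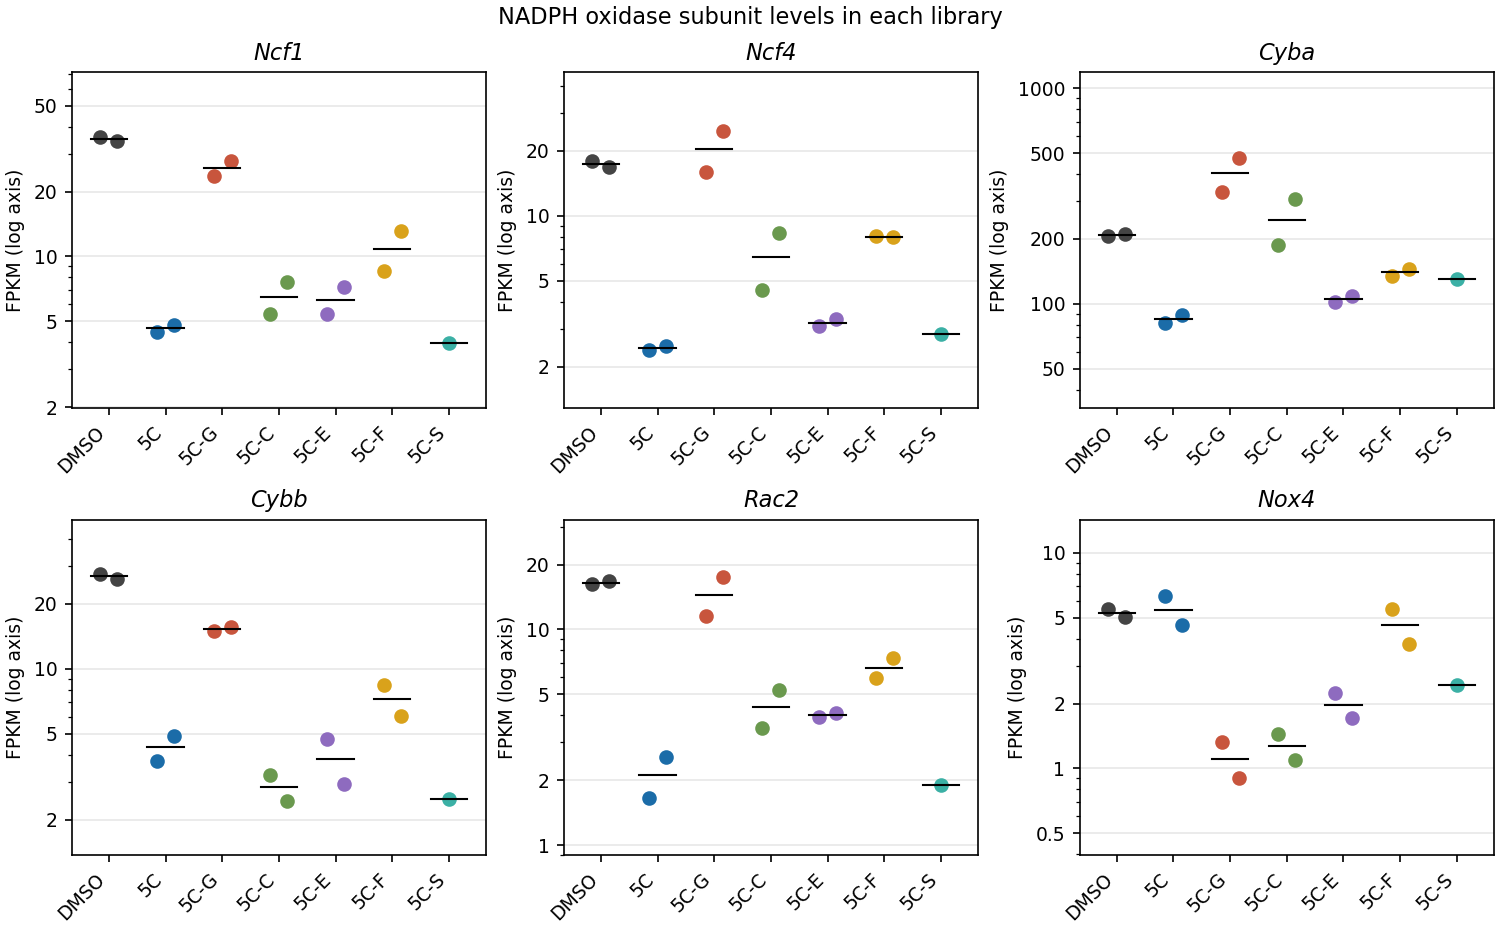
Levels of the 6 subunit genes in FPKM on log axes, with 1 point per library and a line at the group mean; each panel spans the same number of fold on its axis. The phagocyte genes are high in DMSO and 5C-G, and Cyba in 5C-C as well, whereas Nox4 is high in DMSO, 5C and 5C-F, where it lies between 3.76 and 6.27 FPKM.

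Leaving out the ROCK inhibitor raised the phagocyte subunits several-fold above 5C and lowered Nox4. All 5 phagocyte subunits were called higher in 5C-G than in 5C (7.47% of all tested genes were), with a median log2 fold change of 2.61 against -0.01 over all genes. Ncf1 had 23.6 and 27.6 FPKM in 5C-G, Ncf4 16.0 and 24.8 FPKM, and Rac2 11.5 and 17.5 FPKM. These cytosolic genes were 6.09-fold, 9.26-fold and 7.67-fold above 5C, with edgeR adjusted p values of 1.63e-06, 2.68e-06 and 3.89e-06. Cyba reached 331 and 477 FPKM, the highest values of any member in any library (log2 fold change 2.40 ± 0.25, adjusted p = 4.37e-06). Cybb rose to 14.9 and 15.6 FPKM (1.95 ± 0.25, adjusted p = 3.99e-05), the smallest of the 5 changes. With an offset for the GC content and length of genes, fitted in each library, Cyba had the smallest (1.89, against 2.35 for Cybb) and all 5 were still called (5.44% of tested genes were).

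Against DMSO, the cytosolic genes did not pass the test in 5C-G, with log2 fold changes of -0.38 (Ncf1), 0.31 (Ncf4) and -0.10 (Rac2) and edgeR adjusted p values of 0.293, 0.515 and 0.854. Both 5C-G libraries nevertheless lay below both DMSO libraries for Ncf1, and with the offset its change was -0.61 (adjusted p = 0.0347). Only Cyba among the phagocyte subunits was called (1.04 ± 0.24, adjusted p = 0.0113, with 3.11% of tested genes called higher). This call lay at the threshold and was lost in 6 of 9 other settings, among them that offset (0.63), and without DMSO A, DMSO B or 5C-G B (0.98, 1.05 and 0.64). Cybb lay below DMSO in both libraries (-0.76, edgeR adjusted p = 0.0453), short of the fold required for a call, and with the offset it was at -0.48 (adjusted p = 0.128).

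Nox4 fell to 1.32 and 0.901 FPKM in 5C-G. This was 4.50-fold below 5C (-2.17 ± 0.26, edgeR adjusted p = 1.60e-05, with 5.64% of tested genes called lower) and 4.58-fold below DMSO (-2.20 ± 0.26, adjusted p = 8.14e-05, with 2.72% called lower). With the offset these values were -1.56 and -1.77, and both were still called. The comparisons with 5C and with DMSO share the 5C-G libraries. The ratio of Nox4 to Cybb was 0.0889 and 0.0579 in 5C-G, the lowest of the 13 libraries.

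Without the protein kinase D inhibitor the subunits of the complex parted. In 5C-C, Ncf4 (4.55 and 8.33 FPKM), Cyba (187 and 305 FPKM) and Rac2 (3.50 and 5.26 FPKM) were called higher than in 5C, where 9.65% of all tested genes were. Their log2 fold changes were 1.57 ± 0.30, 1.70 ± 0.24 and 1.23 ± 0.29, with edgeR adjusted p values of 7.49e-04, 8.92e-05 and 0.00301. Ncf1 rose by less than the fold required (5.40 and 7.60 FPKM, 0.66 ± 0.23, adjusted p = 0.0368). Cybb, at 3.22 and 2.44 FPKM, lay below both 5C libraries with a log2 fold change of -0.46 ± 0.25 that did not pass the test (adjusted p = 0.165). The ratio of Cyba to Cybb therefore stood at 58.2 in 5C-C A and 125 in 5C-C B, above every library of the other groups.

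GC content moved with this divergence. The GENCODE exons of Cybb hold 41.19% G and C, those of Nox4 38.17%, and those of Ncf1, Rac2, Ncf4 and Cyba 52.93%, 53.31%, 55.06% and 56.88%. Across tested genes the rank correlation of the log2 fold change with GC content was 0.41 for 5C-C against 5C. With an offset for GC content and gene length in each library, the correlation was 0.05 and the log2 fold changes drew together to 0.23 (Ncf1), 0.91 (Ncf4), 0.96 (Cyba), 0.11 (Cybb) and 0.76 (Rac2). None of the 5 then passed the fold required, although the adjusted p values of Ncf4, Cyba and Rac2 were 0.0124, 0.00111 and 0.0262 (6.16% of genes were called higher with the offset). The height of the ratio of Cyba to Cybb in 5C-C depended on this as well: with the offset Cyba and Cybb lay at -0.30 and -2.72 against DMSO in 5C-C and at -0.95 and -3.39 in 5C-S, so that 5C-C no longer stood above 5C-S. The call of Rac2 was also lost without 5C A (0.94) or without 5C-C B (0.87).

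Against DMSO, 4 phagocyte subunits were called lower in 5C-C (11.7% of tested genes were), from -1.33 for Ncf4 to -3.16 for Cybb, whereas Cyba lay at 0.34 (edgeR adjusted p = 0.281), and at -0.30 with the offset (adjusted p = 0.235). Without 5C-C A the log2 fold change of Ncf4 was -0.92. Nox4 had 1.45 and 1.10 FPKM in 5C-C, 3.82-fold below 5C (-1.93 ± 0.25, adjusted p = 5.26e-05, where 10.5% of genes were called lower) and 3.90-fold below DMSO. With the offset it was at -1.26 against DMSO and remained lower than in 5C, at -1.04 (adjusted p = 4.83e-04, with 6.10% of genes called lower).

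Leaving out ETC-1002 left the phagocyte subunits low. In 5C-E none of the 5 was called against 5C by edgeR, DESeq2 or limma, and 1 of the 5 (Rac2) had an unadjusted p under 0.05, while 1.96% of all tested genes were called. Ncf1 had 5.39 and 7.19 FPKM, Ncf4 3.07 and 3.32 FPKM, and Cyba 102 and 109 FPKM. Each of these libraries lay slightly above the 5C libraries, with log2 fold changes of 0.37 ± 0.23, 0.31 ± 0.30 and 0.23 ± 0.24. Cybb had 4.71 and 2.92 FPKM (-0.25 ± 0.25) and Rac2 3.91 and 4.10 FPKM (0.85 ± 0.29, edgeR adjusted p = 0.142). Against DMSO all 5 were called lower (3.68% of tested genes were), between -1.13 for Cyba and -2.96 for Cybb. The call of Cyba lay near the threshold, at -0.98 with library totals only or with limma on FPKM, and it was lost without 5C-E A (-1.04, edgeR adjusted p = 0.0708).

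Nox4, in contrast, was lower in 5C-E, at 2.23 and 1.71 FPKM. It lay 2.89-fold below 5C (-1.53 ± 0.25, edgeR adjusted p = 0.00163, where 1.31% of tested genes were called lower) and 2.95-fold below DMSO. Without 5C-E B the fold change against 5C was -1.35 with an edgeR adjusted p of 0.0725, which did not pass the test.

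Leaving out forskolin raised 3 phagocyte subunits to levels between those of 5C and DMSO, and Nox4 did not differ from 5C beyond its error. In 5C-F, Ncf1 (8.53 and 13.1 FPKM), Ncf4 (8.02 and 7.96 FPKM) and Rac2 (5.94 and 7.36 FPKM) were called higher than in 5C, where 2.69% of tested genes were. Their log2 fold changes were 1.31 ± 0.24, 1.80 ± 0.30 and 1.75 ± 0.29, with edgeR adjusted p values of 0.003, 0.00183 and 0.00156. Without 5C A, Ncf1 gave 1.23 with an adjusted p of 0.0564. The membrane pair lay above both 5C libraries as well, Cybb at 8.45 and 6.03 FPKM (0.85 ± 0.25) and Cyba at 135 and 145 FPKM (0.81 ± 0.24), with adjusted p values of 0.0365 and 0.0369 but less than the fold required. With the GC and length offset Cybb passed it, at 1.03 (adjusted p = 0.00455, with 2.09% of genes called higher), and Cyba was at 0.52.

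Against DMSO, Cybb (-1.86), Ncf1 (-1.68), Rac2 (-1.29) and Ncf4 (-1.10) were called lower in 5C-F (4.22% of tested genes were), while Cyba at -0.55 was not (edgeR adjusted p = 0.135; -0.73 and 0.0116 with the offset). The adjusted p of Ncf4 rose to between 0.0735 and 0.127 when any of the 4 libraries was left out, and without 5C-F A the call of Rac2 was lost as well (adjusted p = 0.0573). Nox4 had 5.51 and 3.76 FPKM in 5C-F and overlapped both 5C (-0.12 ± 0.24, adjusted p = 0.801) and DMSO (-0.15 ± 0.24, adjusted p = 0.743).

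The 5C-S library, without Salidroside, has no replicate and no test. Ncf1 (3.98 FPKM), Cybb (2.48 FPKM) and Rac2 (1.90 FPKM) were near or below the levels of 5C, Ncf4 (2.84 FPKM) and Cyba (131 FPKM) above both 5C libraries. Against 5C the log2 fold changes ran from -0.82 (Cybb) to 0.61 (Cyba). Nox4, at 2.45 FPKM, lay 2.25-fold below the 5C mean.

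**Figure D2:**
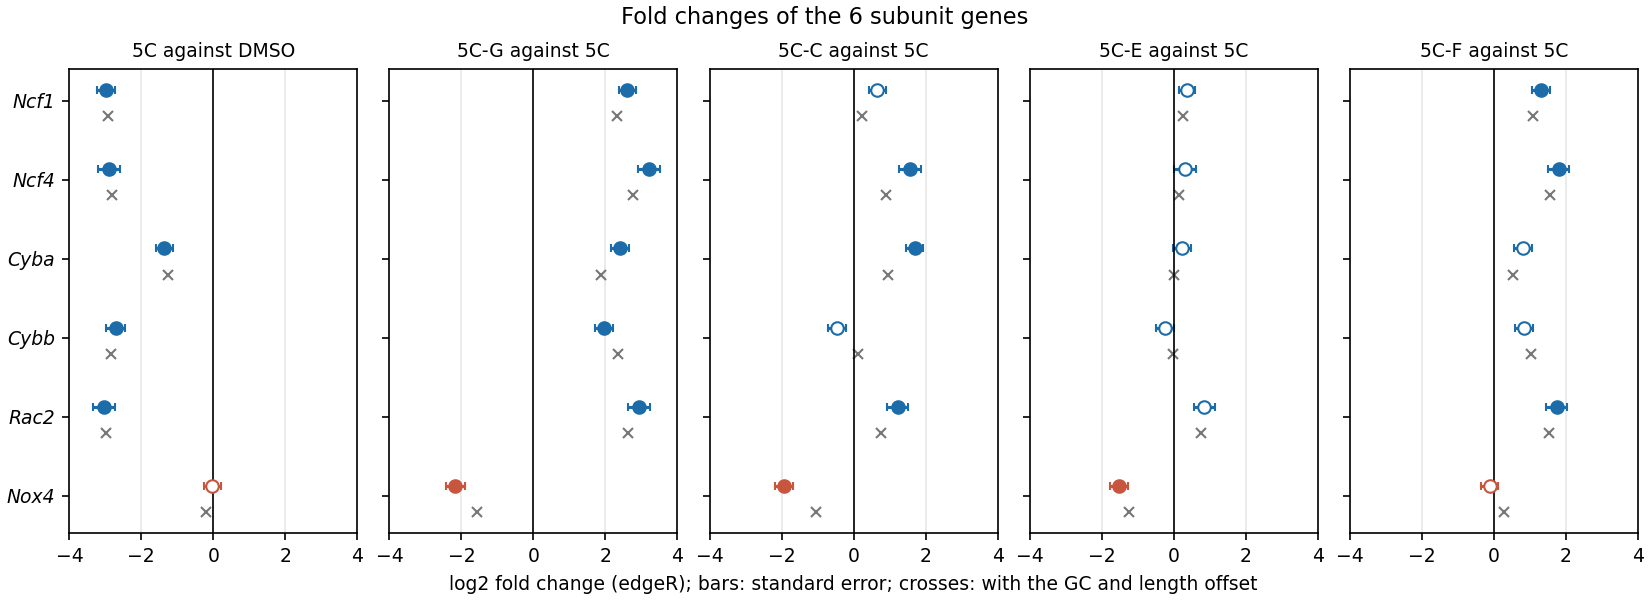
Log2 fold changes from edgeR for the 6 genes in 5 comparisons, with bars of 1 standard error; filled points passed the test and the fold required, open points did not, and crosses give the value with the GC and length offset. Nox4 (red) is at -0.03 and -0.12 in the comparisons of 5C with DMSO and of 5C-F with 5C, and negative in the other 3.

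The order of the levels summarises the difference between the complex and Nox4, with steps judged by the adjusted p of neighbouring groups without the GC and length offset. For Ncf1 the order was DMSO, 5C-G, 5C-F, 5C-C, 5C-E and 5C, and the only step between neighbours that passed was that from 5C-G to 5C-F (edgeR adjusted p = 9.81e-04). Rac2 had the same order and the same single step (adjusted p = 0.00741). For Ncf4, 5C-G stood first, and the steps from DMSO to 5C-F (0.0167) and from 5C-C to 5C-E (0.00469) passed. Cybb descended in 3 steps, from DMSO to 5C-G (edgeR adjusted p = 0.0453), to 5C-F (0.00516) and to 5C (0.0365), below which 5C, 5C-E and 5C-C did not differ beyond their spread. For Cyba no neighbours differed, in the order 5C-G, 5C-C, DMSO, 5C-F, 5C-E and 5C. For Nox4, DMSO, 5C and 5C-F formed the upper level and 5C-E, 5C-C and 5C-G the lower, with a single step between 5C-F and 5C-E (adjusted p = 8.06e-04). With the offset the order changed for every gene but Rac2, so not all of these pairs of groups stayed neighbours. The pairs named for these steps still passed, except Cybb between DMSO and 5C-G. Those that passed had edgeR adjusted p values from 1.79e-05 (Nox4, 5C-F and 5C-E) to 0.0335 (Ncf4, 5C-C and 5C-E). Nox4 still had DMSO, 5C and 5C-F above the other groups. The order of Cyba became 5C-G, DMSO, 5C-C, 5C-F, 5C-E and 5C, with 5C-G above DMSO (edgeR adjusted p = 0.0328). Between DMSO and 5C-G the edgeR test no longer passed for Cybb (0.128) and newly passed for Ncf1 (0.0347). Between 5C-F and 5C-C it newly passed for Ncf1 (0.00367) and Rac2 (0.0364).

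Between removals, Nox4 was 4.13-fold higher in 5C-F than in 5C-G (2.05 ± 0.25, edgeR adjusted p = 4.41e-05, with 4.27% of tested genes called higher) and 3.51-fold higher than in 5C-C (1.81 ± 0.25, adjusted p = 1.02e-04, with 5.26% called higher). Cybb was 2.47-fold higher in 5C-F than in 5C-C (1.30 ± 0.25, adjusted p = 0.00157), while Cyba was 1.85-fold lower there (-0.89 ± 0.24, adjusted p = 0.015), short of the fold required. With the offset, these values for Cybb and Cyba were 0.92 and -0.43.

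**Figure D3:**
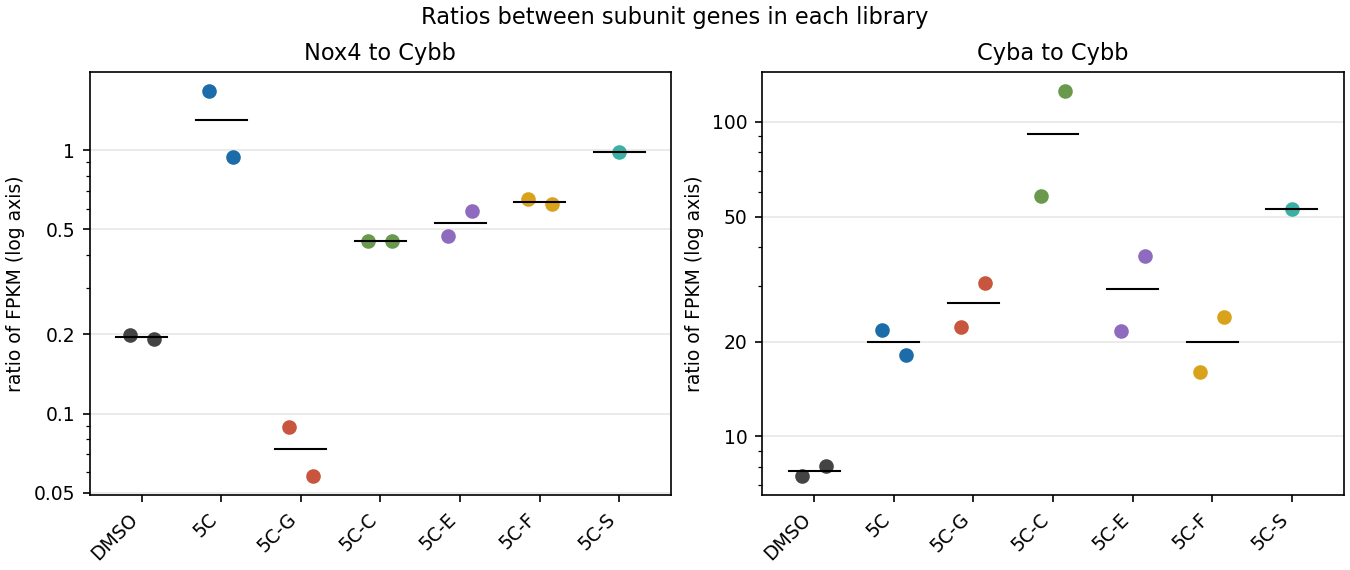
Ratios of FPKM, on log axes, of Nox4 to Cybb (left) and of Cyba to Cybb (right), with 1 point per library and a line at the group mean. The group mean of Nox4 to Cybb is lowest in 5C-G (0.0579 and 0.0889) and highest in 5C among groups of 2 (0.940 and 1.67), with the single 5C-S library at 0.985, and Cyba to Cybb, which is not corrected for GC content here, is lowest in DMSO (7.47 and 8.04) and highest in 5C-C (58.2 and 125).

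Of a list of other genes that serve the phagocyte oxidase, 5 are given here, and they do not stand for the whole list. Rac1, the general Rac GTPase, had 107 FPKM without and 106 FPKM with the cocktail (log2 fold change -0.08), Arhgdib 60.8 and 56.2 FPKM (-0.19), and the small GTPase Rap1a 55.5 and 67.8 FPKM (0.21). The proton channel Hvcn1 was low, at 0.405 and 0.286 FPKM (-0.58). Cybc1, a chaperone of the membrane pair, was at 13.5 and 9.59 FPKM (-0.57, edgeR adjusted p = 0.0832). It was higher than in 5C by less than the fold required in 5C-G (0.80, adjusted p = 0.00435) and in 5C-C (0.57, adjusted p = 0.0215). None of these 5 genes was called by edgeR in the 5 comparisons.

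The receptors and kinases that activate the oxidase moved with it. Of 16 such genes 14 were called lower by the cocktail (median log2 fold change -2.50, with 2.89% of all tested genes called lower), and 14 were called higher in 5C-G than in 5C (median 2.26, with 7.47% called higher). Fcgr1, the high-affinity IgG receptor, fell from 10.1 to 0.805 FPKM (-3.72, edgeR adjusted p = 9.73e-07). The adaptor Tyrobp fell by 2.92 on the log2 scale, as did the integrin chain Itgb2. In 5C-C, Fcgr1, Fcgr3, Fcgr4 and Tyrobp were called higher (4 of 16, against 9.65% of all tested genes), of which Fcgr3 (0.58) and Tyrobp (0.64) lost their calls with the offset. The kinase Btk was called lower (-1.16, adjusted p = 0.0168), 1 of 16 genes where 10.5% of all tested genes were. In 5C-F 6 were called higher (2.69% of all genes were), among them Tyrobp (1.63) and the exchange factor Vav1 (1.17), and 5 with the offset, where Vav1 (0.99) and Itgb2 (0.96) lost their calls and Prkcb gained one (1.23). In 5C-E none was called by edgeR, DESeq2 or limma, and 4 had an unadjusted p under 0.05.

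Of 7 transcription factors known to act on phagocyte oxidase genes, 6 were tested. Spi1 (PU.1), the master regulator of myeloid cells, was at 25.1 FPKM in DMSO, 3.59 FPKM in 5C and 35.4 FPKM in 5C-G. Its log2 fold changes were -2.88 for 5C against DMSO (edgeR adjusted p = 2.98e-06), and 3.45, 1.42 and 1.85 for 5C-G, 5C-C and 5C-F against 5C, all called. Irf8, an interferon regulatory factor of the same lineage, was called in the same comparisons, at -3.10, 3.06, 1.09 and 1.41. With the offset, Irf8 was still called in 5C-C against 5C (1.05) and Spi1 was not (0.77). Cebpb, which hepatocytes also express, was called higher in 5C-G (1.34) and 5C-C (1.48), calls that the offset removed, and gave -0.75 in 5C against DMSO (adjusted p = 0.144).

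The rest of the NOX and DUOX family was hardly expressed. Of 8 listed genes 7 were in the table, and none exceeded 0.341 FPKM (Noxa1) or 64 counts (Duox2) in any library. Nox1, the colon-type catalytic subunit, reached 11 counts at most. None of these genes was called in the 5 comparisons by edgeR, DESeq2 or limma, and an unadjusted p under 0.05 occurred for 1 gene in 5C against DMSO and for 1 in 5C-C against 5C. Of the catalytic subunits in the table, Cybb and Nox4 alone exceeded these levels in every library.

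Of 10 partners of Nox4 and genes of TGF-beta signalling, none was called in 5C against DMSO by edgeR, DESeq2 or limma (3 had an unadjusted p under 0.05), and the median log2 fold change was -0.22. In 5C-G against 5C the ligand Tgfb1 was called higher, at 35.0 ± 7.03 FPKM against 13.5 ± 1.63 FPKM (1.52, edgeR adjusted p = 1.83e-04), 1 of 10 genes where 7.47% of all tested genes were, while Nox4 was lower. In 5C-C, 3 of the 10 genes were called lower, where 10.5% of all tested genes were: the receptor Tgfbr1 (-1.19), the transducer Smad2 (-1.05) and Ccn2 (-1.70), a matrix-associated target gene. With the GC and length offset Ccn2 was still called (-1.94), while Tgfbr1 (-0.70) and Smad2 (-0.60) were not, and the transducers Smad3 (-1.21) and Smad7 (-1.12) were called in their place. Ccn2 was also called lower in 5C-E, from 247 to 99.1 FPKM (-1.38, adjusted p = 1.31e-04, with 1.31% of all tested genes called lower). Nox4 fell in all 3 of these removals, of which Ccn2 was called lower in 5C-C and 5C-E and was at 0.29 in 5C-G (adjusted p = 0.23).

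Of 13 enzymes that remove superoxide and peroxide, none was called in 5C against DMSO by edgeR, DESeq2 or limma, 3 had an unadjusted p under 0.05, and the median was 0.32. In 5C-G, Gpx4, which reduces lipid peroxides, and the peroxiredoxin Prdx5 were called higher than in 5C (1.04 and 1.26; 7.47% of all tested genes were), and neither passed the fold required with the offset (0.44 and 0.75), with which Prdx4 was called instead (1.03). In 5C-C, Prdx5 (1.81), Gpx4 (1.40), Prdx2 (1.35) and the cytosolic superoxide dismutase Sod1 (1.01) were called higher (4 of 13, against 9.65% of all tested genes). With the offset Gpx4 lost its call (0.52), Prdx6 (1.41) and Prdx4 (1.33) were called higher, and catalase (Cat) was called lower (-1.14). No gene of the list was called in 5C-E or 5C-F by these tools, where 4 and 8 had an unadjusted p under 0.05. Of 6 enzymes that supply NADPH, Taldo1 of the pentose phosphate pathway was called higher in 5C-G (1.19) and 5C-C (1.47) but not with the offset (0.84 and 0.93), and none was called in 5C against DMSO by the 3 tools (1 had an unadjusted p under 0.05).

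Macrophage markers moved with the phagocyte subunits. Of 14 markers 12 were called lower in 5C than in DMSO (median -3.01, with 2.89% of all tested genes called lower) and 12 higher in 5C-G than in 5C (median 3.30, with 7.47% called higher). In 5C-C 6 were called higher (9.65% of all genes were) and Ptprc lower (10.5% were), with a median of 1.06, but with the GC and length offset 5 were called higher (Lyz2 and Mrc1 came in, and C1qc, Marco and Cd5l dropped out) and Ptprc was no longer called, going from -1.04 to 0.13 (edgeR adjusted p = 0.677). In 5C-F 10 were called higher (median 1.74, with 2.69% of all genes called higher), and 10 with the offset, where Ptprc (1.21) took the place of Adgre1. In 5C-E none was called by edgeR, DESeq2 or limma, 5 had an unadjusted p under 0.05, and the median was 0.26. In 5 of 9 other settings, the GC and length offset among them, and without 5C-E A, 1 marker was called. The summed level of the 14 markers was 5330 and 5400 FPKM in DMSO, 573 and 665 in 5C, 5400 and 7580 in 5C-G, 1080 and 1770 in 5C-C, 781 and 916 in 5C-E, 1800 and 2140 in 5C-F, and 683 in 5C-S. Across the 13 libraries, the correlation of this sum with the subunit on the log2 scale was 0.99 for Ncf4, 0.97 for Ncf1 and Rac2, 0.86 for Cybb, 0.84 for Cyba and -0.19 for Nox4. These points share groups and library depths and are not corrected for GC content, and the values are given as a description. The part of the macrophage content of the cultures in the levels of the subunits was not tested.

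Cybb as a share of the macrophage sum was not constant. It was 0.518% and 0.485% in DMSO and 0.655% and 0.738% in 5C, but 0.275% and 0.205% in 5C-G and 0.298% and 0.138% in 5C-C. The libraries of 5C-E were at 0.604% and 0.318%, and those of 5C-F at 0.470% and 0.282%. The spread within a group was wide in these groups, as it was in 5C-C, and no test was run on these shares. The shares are not corrected for GC content. With the GC and length offset, the log2 fold change of Cybb moved from -0.46 to 0.11 in 5C-C against 5C. In 5C-G against DMSO it moved from -0.76 to -0.48.

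Nox4 moved with hepatocyte markers in part. The summed level of the 7 hepatocyte markers was 12100 and 10900 FPKM in DMSO, 10900 in each 5C library, 6890 and 8230 in 5C-G, 5110 and 4690 in 5C-C, 3660 and 3160 in 5C-E, 21700 and 17300 in 5C-F, and 7150 in 5C-S. The groups with low Nox4 thus had low sums as well, but the highest sums, in 5C-F, came with Nox4 at the level of 5C, and the lowest mean of Nox4, in 5C-G, came with sums above those of 5C-C and 5C-E. The correlation over 13 libraries was 0.69 with hepatocyte markers and -0.68 with stellate cell and fibroblast markers, whose sum ran from 901 FPKM (5C-F B) to 2350 FPKM (5C-G B). These levels are not corrected for GC content, and the part of either cell type in the level of Nox4 was not tested.

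**Figure D4:**
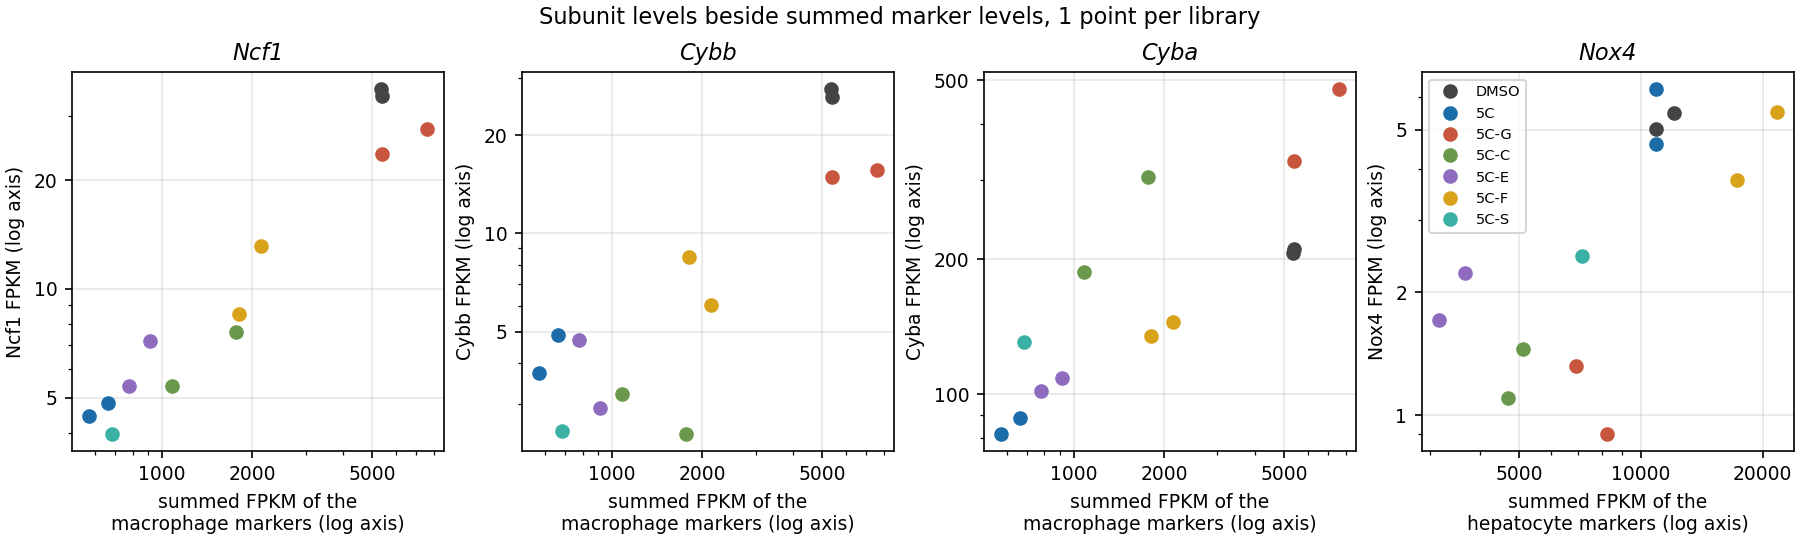
Levels of Ncf1, Cybb and Cyba against the summed level of 14 macrophage markers, and of Nox4 against that of 7 hepatocyte markers, all in FPKM on log axes, with 1 point per library coloured by group. Ncf1 rises with the macrophage sum across groups (r = 0.97 on the log2 scale), 5C-C lies low for Cybb and high for Cyba, and 5C-G lies low for Nox4. The levels are not corrected for GC content.

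Among themselves, Ncf1 and Rac2 were most alike over the 13 libraries (Pearson r = 0.98 of log2 levels), followed by Ncf4 and Rac2 (0.97) and by Ncf1 and Ncf4 (0.95). Cybb correlated with Ncf1 at 0.92 and with its membrane partner Cyba at 0.52. Nox4 correlated at 0.26 with Cybb and at -0.54 with Cyba, the subunit that both oxidases use. Among all tested genes, the most similar to Cybb were the predicted gene Gm8995 (0.997), the endosomal receptor Tlr7 (0.994), Slc38a6 (0.988), the endosomal receptor Tlr13 (0.985) and the myeloid surface protein Cd33 (0.985). The most similar to Nox4 were Gpam, the first enzyme of glycerolipid synthesis (0.977), coagulation factor F5 (0.970), the phosphatidate phosphatase Lpin1 (0.963), the urea cycle enzyme Cps1 (0.961) and the pyrimidine-degrading enzyme Dpyd (0.960). These likenesses are descriptions over libraries that share groups. The levels were not corrected for GC content, which is 38.17% for Nox4, 41.19% for Cybb and 56.88% for Cyba. The part of GC content in these correlations was not tested.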

How the data were processed

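RNA of cultured dHeps was sequenced in pairs of reads on a NovaSeq instrument from libraries made with a NEBNext Ultra kit, which does not mark strand. The authors deposited a table of raw read counts per gene and FPKM values computed from those counts. The submitters' processing notes name featureCounts, Subread, DESeq2 and the build GRCm39, while the aligner's settings, the annotation release and the strand setting are not given in the sources used here. No column of the table was left unused for want of a sample (0 such columns).

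Counts were fitted in R 4.3.3 with edgeR 4.0.16 (TMM factors, quasi-likelihood test, two-sided, Benjamini-Hochberg adjustment over all genes tested). The study's methods name DESeq, which served here as an alternative (DESeq2 1.42.0). Genes had to pass edgeR's filter with a minimum count of 10, which kept 19884 of 27141. All 13 libraries of 7 groups entered a single fit with 6 residual degrees of freedom and a common biological coefficient of variation of 0.261. A call required an adjusted p below 0.05 and an absolute log2 fold change above 1. Values after ± are standard errors for log2 fold changes and SDs for levels (n = 2).

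Alternatives were library totals, DESeq2, no filter, at least 10 counts in every library, the libraries of the 2 groups only, limma 3.58.1 on log2(FPKM + 1) and log2(FPKM + 0.1), an offset for GC content and gene length per library (splines with 5 degrees of freedom, with GC content for 99.1% of genes), each library left out in turn, and the number in the column name as a replicate block. The block and the alternatives for comparisons with DMSO and for macrophage markers were chosen after seeing the data. Likeness between genes used log2(CPM + 1), for which the 5 most similar genes of Cybb and of Nox4 were named. The text names all members, from each list up to 4 genes with the largest absolute log2 fold change among those called in a main comparison, and list genes that a statement turns on. Scripts were tested on simulated data. The members and lists were chosen with earlier results of these data known.

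Promoter sequences came from RefSeq (GRCm38.p6). Cybc1 and Ccn2 were matched by gene ID, as the table gives older symbols. Nox3, Cxcr2, Retnlg, Cd3d, Nkg7 and Ncr1 were not analysed here, and some genes of the lists are not reported here. Dpep2 was left out of the fits with limma. Figures were drawn with Python 3.11.15 and matplotlib 3.10.9.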

Additional observations from a re-analysis of the deposited data

How the results depend on the processing

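Of 65 counts of phagocyte subunits called in the 5 main comparisons under the alternatives, 64 stayed within 1.5 times the reported count. The exception was 5C-C against 5C, where 0 subunits were called with the GC content and length offset in place of 3. That offset also reduced the genes called over the whole table in this comparison, from 1918 to 1225 higher and from 2093 to 1213 lower. Nox4 kept its side of the threshold in 64 of 65 values. In 5C against DMSO and in 5C-F against 5C, where it was not called, its sign turned in 8 values, to between 0.03 and 0.16 and to between 0.10 and 0.28. Its call was lost only in 5C-E against 5C, where the log2 fold change ran from -1.70 to -1.31 when single libraries were left out and did not pass without 5C-E B (-1.35, edgeR adjusted p = 0.0725). Of 325 fold changes of single phagocyte subunits 316 kept their side of the threshold and 9 did not, and of 312 member values in the comparisons with DMSO, added after seeing the data, 293 did and 19 did not, and no called value reversed its sign in either set, while uncalled values changed sign 2 and 7 times. The cause was not tested. A library left alone in its group was assumed to vary like the other groups. With 2 libraries per group, a change smaller than the fold required could often not be told from the spread. The columns carry the numbers 1 (A) and 2 (B), which match no number in the labels. The differences between B and A correlated between groups at -0.03 to 0.10 over 19884 genes (15 pairs of groups), so these numbers were not taken to pair libraries. Among the members, Cyba and Rac2 were higher and Nox4 lower in B in 6 of 6 groups. With this number as a replicate block, added after seeing the data, no phagocyte subunit and no value of Nox4 changed its call in the 5 main comparisons (Nox4 in 5C-E against 5C stayed at -1.53), and 466 genes in place of 390 were called in 5C-E against 5C.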
